A study of Mus musculus with 16 samples.

Results

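The odorant receptor genes of mouse chromosome 11 were described in cells sorted from the olfactory mucosa. A member was a probe set whose identifier placed it on chromosome 11 and whose single gene symbol in the platform annotation was Olfr followed by digits only. This gave 78 genes, each with 1 probe set, out of 1080 odorant receptors and 19505 genes on the array. The mice were C57BL/6 and S100a5-tauGFP, so all groups had a tau-linked green fluorescent protein (GFP) that reports on S100a5. They were of both sexes and 7 to 12 weeks old. Each was kept alone in clean flowing air for 40 h, and after 26 h received pulses of 10 s every 20 min. The odor groups received a mixture of isoamyl acetate, a fruity ester, and whiskey lactone, a scent compound of oak-aged spirits; the vehicle groups received filtered air. Mucosa cells from 3 mice at a time went through the sorter as 1 pool. Each of the 4 pools per treatment gave a library titled GFP+ and a library titled GFP-, so the 16 libraries fell into 4 groups: odor titled GFP+, odor titled GFP-, vehicle titled GFP+ and vehicle titled GFP-. How the gates were set is not stated in the labels.

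Odorant receptors are membrane proteins on the cilia of olfactory sensory neurons that couple odor binding to a G protein, cyclic AMP and a cation channel. Each mature neuron expresses a single receptor gene, from a single allele, so the level of a receptor transcript in a cell fraction follows the number of neurons that chose the gene and the amount of RNA per neuron. Arrays of bulk RNA cannot tell fewer cells of a type from less RNA per cell. S100a5, a calcium-binding protein, is raised by activity in these neurons, and the comparison of fractions in odor and in vehicle asks which receptors lie with active neurons and whether the odor moves them.

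The labels limit every direction given here. For each of the 16 samples, GFP+ in the title met GFP- in the tag for cell type, or the reverse, and groups follow the titles. On the deposited log2 scale S100a5 had values of 15.39, 15.11, 15.05 and 15.55 in the odor libraries titled GFP+ (replicates 1 to 4), against 16.04, 16.66, 16.55 and 16.48 in those titled GFP-. In vehicle replicates 1, 2 and 4 it was 14.59, 14.91 and 15.47 titled GFP+, against 16.44, 16.35 and 16.27 titled GFP-. The reporter gene was thus lower in the libraries titled GFP+, by -1.16 ± 0.20 (SE) in odor and -1.37 ± 0.23 in vehicle (limma adjusted p = 0.000588 and 0.000560), which goes against the titles. If the tags are right, every difference between fractions changes sign and the odor comparisons within a fraction change places. Vehicle pool 3 ran the other way in both of its libraries (16.37 titled GFP+, 14.99 titled GFP-). It lay opposite in sign to the other 7 pools for 40 of the 40 receptors that passed in both treatments in the fit without it. These 40 were thus chosen by a fit that left the pool out, and no matching share over all genes was computed. An earlier look at these data placed both of its libraries with the opposite fraction. For that reason results are given for the 14 arrays without that pool, with the count for all 16 arrays as labelled beside them.

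In odor, 47 of the 78 receptors differed between fractions: 28 were higher in the libraries titled GFP+ than in those titled GFP- and 19 were lower (limma, Benjamini-Hochberg over 19505 genes, adjusted p under 0.05). Over all genes 13.2% passed (8.59% higher, 4.59% lower), and of the 1002 odorant receptors of other chromosomes 605 passed, or 60.4% against 60.3% of the chromosome 11 members. The share that passed was therefore near that of receptors elsewhere. Of the calls 59.6% were higher on chromosome 11, against 43.1% on the other chromosomes, and the median difference was 0.19 over the 78 members, -0.25 over the other receptors and -0.08 over all genes; no test was made of these contrasts between sets. With each array centred on its median, the members' median turned to -0.16, against -0.60 over the other receptors and -0.43 over all genes, and the calls were 27 higher and 25 lower. So centred, 66.7% of members, 72.0% of the other receptors and 51.7% of all genes passed. Of all genes 1344 were then higher and 8734 lower. Differences of called members ran from 0.82 (Olfr223) to 7.96 (Olfr393) among the higher ones, and from -0.87 (Olfr403) to -3.19 (Olfr222) among the lower ones. Both odor means of Olfr223 (4.35 titled GFP+, 3.52 titled GFP-) lay under 5.46, the median of the probe sets named as negative. Olfr223 no longer passed without odor replicate 1 titled GFP+. Olfr403 no longer passed without odor replicate 2 titled GFP+ or replicate 3 titled GFP-. Libraries of the 2 odor fractions did not overlap for 49 members (30 higher, 19 lower), while this held for 16.5% of all genes. With all 16 arrays 29 members passed in odor (19 higher, 10 lower; 6.97% of all genes, 4.57% higher and 2.39% lower), the odor values themselves being unchanged and the shared estimate of the spread larger.

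**Figure D1:**
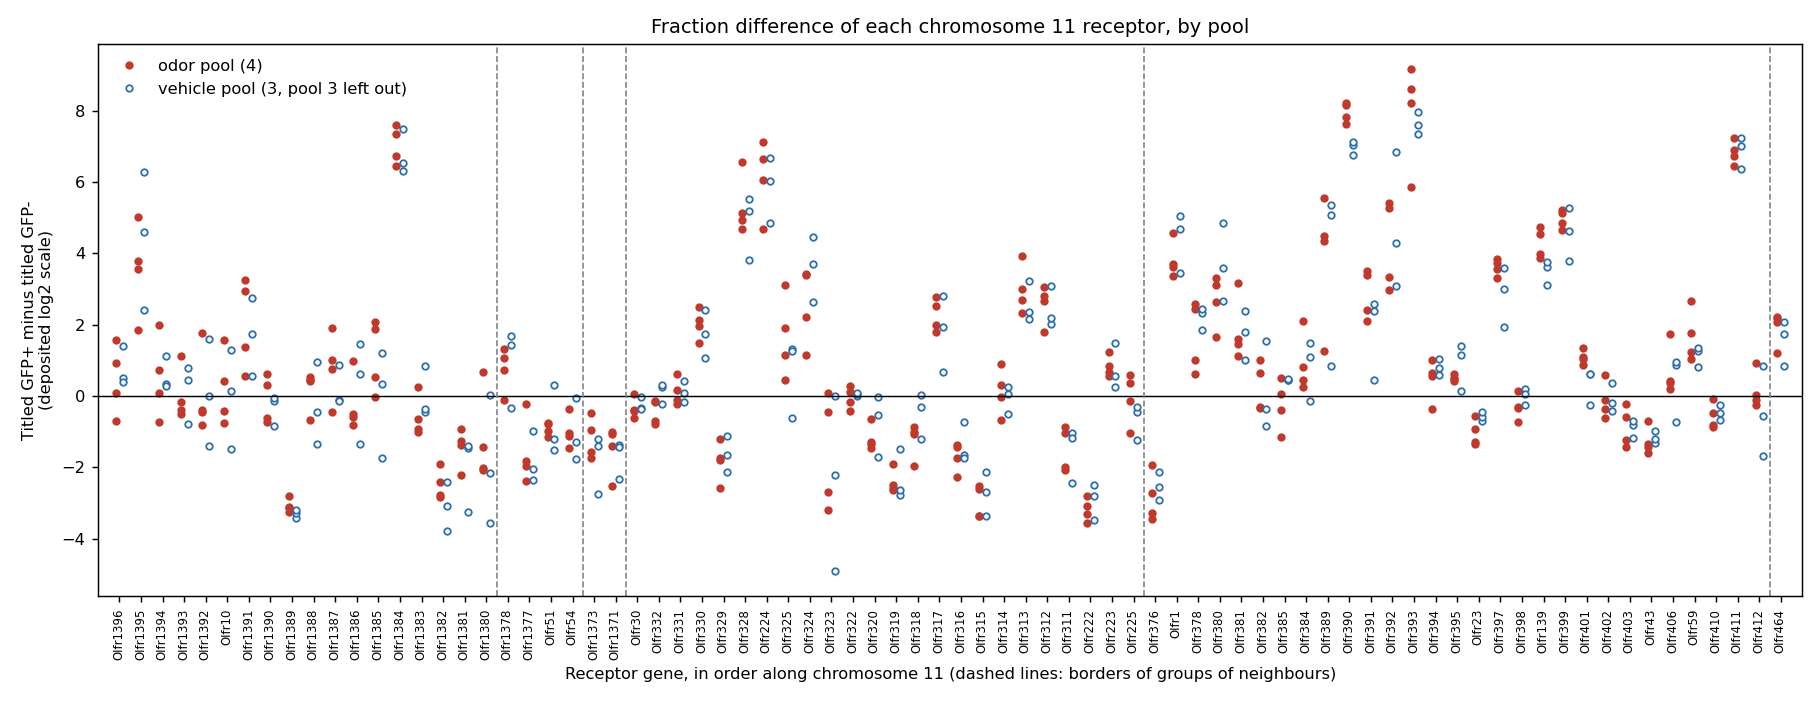
Titled GFP+ minus titled GFP- on the deposited log2 scale (y axis) for each of the 78 receptors in their order along chromosome 11 (x axis). Each filled red point is 1 odor pool and each open blue point 1 vehicle pool without pool 3, and dashed lines part groups of neighbouring genes. Olfr1384, Olfr390, Olfr393 and Olfr411 reach 5.86 or more in every pool shown.

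Olfr393 and Olfr390, from the same family and the same stretch of the chromosome, had the largest positive differences. Olfr393 was 14.11, 14.17, 13.92 and 14.87 in the odor libraries titled GFP+ (replicates 1 to 4), against 8.25, 5.94, 5.30 and 5.70 titled GFP-. Olfr390 was 12.81, 13.16, 13.10 and 13.32 titled GFP+, against 4.60, 5.01, 5.47 and 5.50 titled GFP-. Both receptors were high in all 4 libraries titled GFP+ and low in all 4 titled GFP-, with no overlap. The differences were 7.96 ± 0.46 (SE; adjusted p = 1.15e-08) for Olfr393 and 7.95 ± 0.26 (adjusted p = 2.83e-11) for Olfr390. Replicate 1 titled GFP- held more Olfr393 than the other libraries of its group, which widened that group's SD to 1.33 (mean 6.30, n = 4).

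Olfr1384 and Olfr411 followed, at 12.70 ± 0.09 and 13.92 ± 0.34 in odor titled GFP+, against 5.67 ± 0.55 and 7.09 ± 0.39 in odor titled GFP- (SD, n = 4 each). Their differences were 7.03 ± 0.24 (adjusted p = 3.62e-11) and 6.83 ± 0.26 (adjusted p = 1.53e-10). Olfr224 (6.12), Olfr328 (5.33), Olfr399 (4.96) and Olfr139 (4.29) completed the 8 largest. In all, 13 members, or 16.7%, were higher by over 3, against 12.2% of the receptors on other chromosomes. For 14 of the 47 called members the mean of the lower group lay under 5.46, the median of the probe sets named as negative, so that the low end of the scale limits the size of those differences; Olfr390, Olfr224, Olfr399, Olfr139 and Olfr376 were among them.

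The receptors that were lower in the libraries titled GFP+ moved less far. Olfr222 was 11.94, 11.39, 11.94 and 12.45 in the odor libraries titled GFP+ (replicates 1 to 4), against 15.01, 14.96, 15.24 and 15.26 titled GFP-. Olfr1389 was 9.004, 9.70, 9.59 and 9.96 titled GFP+, against 12.25, 12.81, 12.72 and 12.77 titled GFP-. Neither receptor's fractions overlapped, and both stayed well above the median of the negative probe sets (5.46) in every library. The differences were -3.19 ± 0.21 (adjusted p = 3.71e-08) for Olfr222 and -3.07 ± 0.24 (adjusted p = 2.32e-07) for Olfr1389, the only 2 members under -3 (2.56%, against 6.29% of the other receptors). Olfr315 (-2.97), Olfr376 (-2.85), Olfr1382 (-2.48), Olfr319 (-2.41), Olfr329 (-1.83) and Olfr316 (-1.71) came next, with adjusted p from 3.29e-06 (Olfr376) to 0.00270 (Olfr329). Between these ends lay members with little difference: Olfr322 differed by -0.05 in odor and 0.04 in vehicle, Olfr314 by 0.12 and -0.07, and Olfr1386 by -0.23 and 0.24, each with an interval that spans 0.

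**Figure D2:**
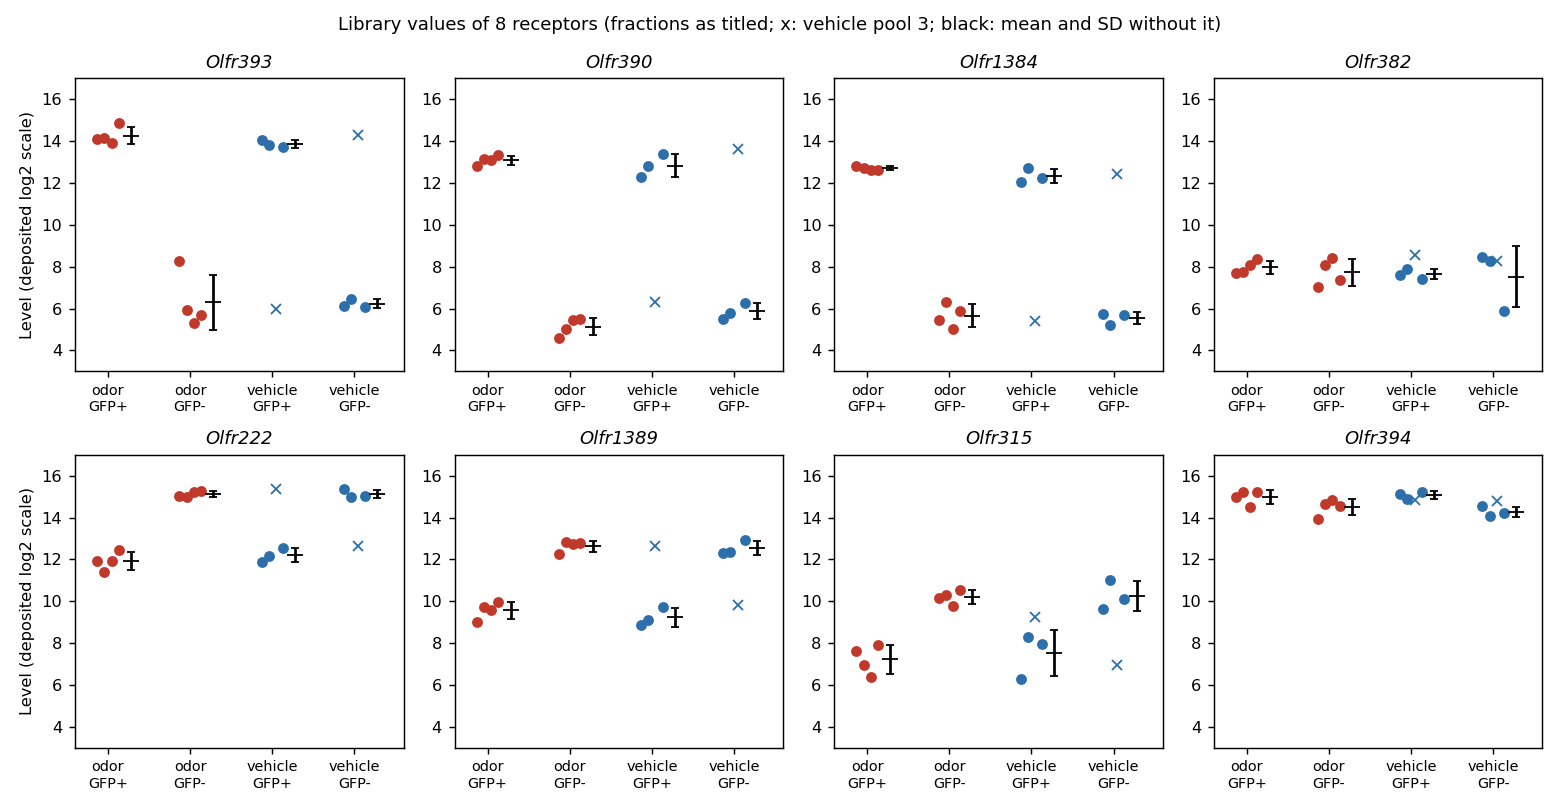
Level of 8 receptors on the deposited log2 scale (y axis) in every library of the 4 groups (x axis, fractions as titled). Points are single libraries, crosses are vehicle pool 3, and black marks are means with SD without that pool (n = 4 in odor, n = 3 in vehicle). Olfr393, Olfr390 and Olfr1384 sit high in the libraries titled GFP+, and Olfr222, Olfr1389 and Olfr315 sit low there. The crosses of these 6 receptors, which part the fractions in both treatments, lie with the opposite fraction. The fractions of Olfr382 overlap. Those of Olfr394 overlap in odor and not in vehicle without pool 3, and its crosses lie close together (14.77 titled GFP+, 14.85 titled GFP-).

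The mice given vehicle showed a similar order of receptors. In vehicle 42 members passed, 26 higher and 16 lower in the libraries titled GFP+ (11.2% of all genes passed, 7.86% higher and 3.32% lower), and the libraries of the 2 fractions did not overlap for 47 members, with 27.6% of all genes at this smaller group size. Olfr390 was 12.29, 12.82 and 13.41 in vehicle replicates 1, 2 and 4 titled GFP+, against 5.52, 5.80 and 6.28 titled GFP-, a difference of 6.97 ± 0.30 (adjusted p = 8.86e-10). Olfr222 was 11.90, 12.15 and 12.56 titled GFP+, against 15.37, 14.96 and 15.05 titled GFP-, a difference of -2.92 ± 0.24 (adjusted p = 6.65e-07). Each receptor had the sign it had in odor, and its vehicle fractions did not overlap. Olfr392, at 4.74 ± 0.71, was among the 8 largest called differences in vehicle in place of Olfr139, and Olfr1381 (-2.04) and Olfr1377 (-1.79) were among the 8 lowest called ones.

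Across the treatments, 24 members were higher in both, 16 were lower in both and 0 passed in opposite directions, while 4 higher and 3 lower ones passed in odor alone, 2 higher ones in vehicle alone, and 29 passed in neither. The fraction differences of odor and vehicle, which come from separate mice, had a Pearson r of 0.98 and a Spearman rho of 0.96 over the 78 members, as a description across genes measured on the same arrays. The sign of the difference was the same in all 7 pools for 46 members. For this count and the counts across treatments, no matching share over all genes or other receptors was computed. They do not show a trait particular to chromosome 11. With all 16 arrays as labelled, 0 members passed in vehicle by limma (16 at an unadjusted p under 0.05), as did 0% of all genes. Pool 3 gave differences of -7.30 for Olfr390 and 2.71 for Olfr222. The direction of 5 uncalled members in vehicle (Olfr51, Olfr1383, Olfr1393, Olfr398 and Olfr401) depended on that pool.

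**Figure D3:**
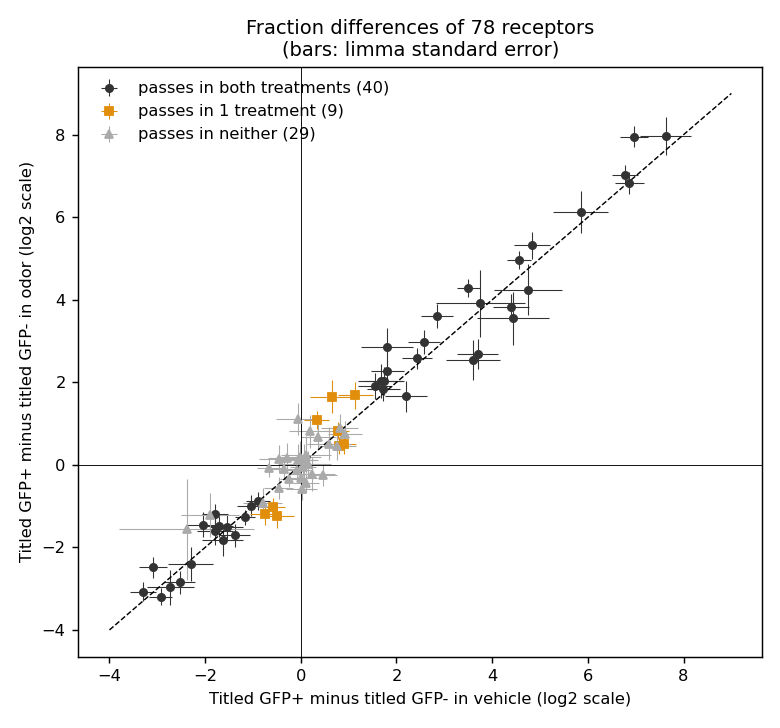
Titled GFP+ minus titled GFP- in odor (y axis) against the same difference in vehicle (x axis), both on the log2 scale, 1 point per receptor with limma standard errors and the line of equality dashed. The 40 receptors that passed in both treatments lie above 0 on both axes or below 0 on both, 9 passed in 1 treatment and 29 in neither.

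Receptor genes lie in arrays of neighbours, and on this chromosome gaps over 1 Mb in the RefSeq table (assembly GRCm38.p6) part the members into 6 groups of 18, 4, 2, 24, 29 and 1 genes in order along the chromosome. The fifth group, which holds Olfr390, Olfr393 and Olfr411, had 15 members higher and 4 lower in odor, and 15 higher and 3 lower in vehicle, with a median of 1.08 in odor. The fourth group had 9 higher and 8 lower in odor and 7 higher and 6 lower in vehicle, with a median of -0.05. In the first group 3 were higher and 3 lower in each treatment. The second group had 2 of its 4 members lower and none higher, the third had both members lower, and Olfr464, alone in the sixth, was higher by 1.92 ± 0.31 in odor (adjusted p = 0.000392). With all 16 arrays, odor calls were 10 higher and 2 lower in the fifth group and 7 and 5 in the fourth. They were 1 higher and 2 lower in the first, 0 in the second, 1 lower in the third and 1 higher in the sixth. No group then had a call in vehicle.

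Of the 72 pairs of members next to each other within a group, 27 had opposite signs in odor, and of the 28 pairs with both members called 8 did. Over these 72 pairs the median gap between their odor fraction differences was 1.76, against 2.35 for the 842 pairs within the same group and 2.15 for all 3003 pairs. The widest gap between adjacent genes was 7.62, between Olfr1384 (7.03) and Olfr1383 (-0.59), which share a family. Olfr328 (5.33) and Olfr329 (-1.83), also neighbours of 1 family, differed by 7.15. Pairs overlap in their members, so these gaps are descriptions.

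Families named MOR, which group receptors by protein similarity, were listed for 75 members, 20 families in all, 7 of them with at least 3 members. MOR135, with 17 members, all in the fifth group, had 10 higher and 2 lower in odor and 12 higher and 1 lower in vehicle, with odor differences from -2.85 (Olfr376) to 7.96 (Olfr393). MOR256, the most numerous with 20 members, was split: 4 higher and 5 lower in odor, 3 higher and 5 lower in vehicle, from -3.19 (Olfr222) to 7.03 (Olfr1384). In both families the members reached far to either side of 0. With all 16 arrays MOR135 had 5 higher and 1 lower in odor, and MOR256 had 2 higher and 4 lower. Neither family then had a call in vehicle.

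Among the smaller families with at least 3 members, called members went both ways in MOR275 and MOR222. In MOR255, MOR285 and MOR129 the called members went in a single direction. Uncalled members of MOR255 (Olfr410, -0.56 in odor) and MOR129 (Olfr1378, 0.75) lay on the other side of 0. Of 6 MOR255 members 4 were higher in odor (Olfr411, Olfr399, Olfr139 and Olfr401) and 3 in vehicle, with none lower. All 4 MOR285 members (Olfr316, Olfr318, Olfr319 and Olfr320) were lower in odor and 2 of them in vehicle. MOR275 had 4 higher and 1 lower of 6 in odor, MOR222 had 2 higher and 1 lower of 3 in both treatments, and MOR129 had 1 lower of 3. With all 16 arrays, odor calls were 4 higher in MOR255, 2 lower in MOR285 and 4 higher and 1 lower in MOR275. They were 2 higher in MOR222 and 0 in MOR129, and these families had no call in vehicle. The pair of MOR125 members, Olfr403 and Olfr43, was lower in both treatments (-0.87 and -1.27 in odor), though the call of Olfr403 rested on single libraries; Olfr43 is the mouse counterpart of a human receptor for terpene odorants. With each array centred on its median, which shifted the median fraction difference of all genes by -0.35, no called member changed direction, and the split in vehicle became 24 higher to 23 lower against 26 to 16. So centred, 43.1% of all genes passed in vehicle, 1323 higher and 7074 lower.

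**Figure D4:**
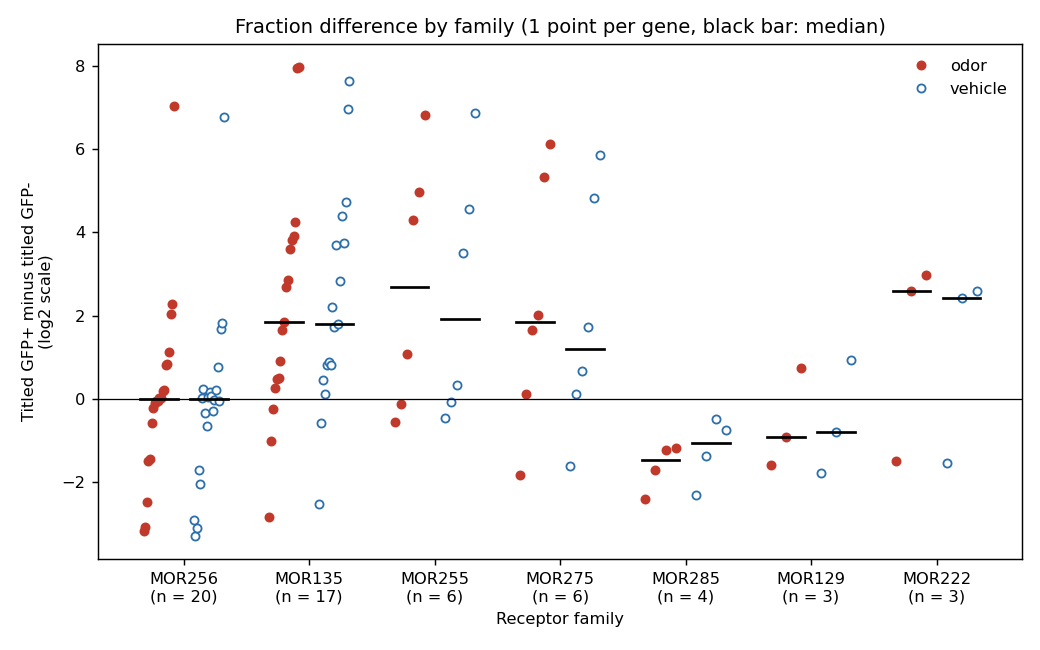
Titled GFP+ minus titled GFP- on the log2 scale (y axis) for the 7 families with at least 3 members (x axis), 1 point per gene, filled red in odor and open blue in vehicle, with a black bar at each median. MOR135 and MOR256 span both signs, while all 4 MOR285 genes lie below 0.

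Some members are alike in their first coding bases, and the rest of these genes was not compared. The first 50 coding bases in RefSeq GRCm38.p6 are shown 5′ to 3′ for 4 of the pairs that share most of this stretch, 1 pair with identical bases and 3 with unlike fraction differences, picked by hand after the values were seen; capitals mark bases that differ within a pair. Olfr312 (chr11:58831156-58831205, plus strand) and Olfr311 (chr11:58841116-58841165, plus strand) differ at 1 of 50 bases, Olfr1380 (chr11:49563923-49563972, plus strand) and Olfr1381 (chr11:49551749-49551798, plus strand) at 0, Olfr393 (chr11:73848074-73848123, minus strand) and Olfr382 (chr11:73517148-73517197, minus strand) at 5, and Olfr410 (chr11:74335180-74335229, minus strand) and Olfr401 (chr11:74121291-74121340, plus strand) at 3.
Olfr312: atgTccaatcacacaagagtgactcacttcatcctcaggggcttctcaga
Olfr311: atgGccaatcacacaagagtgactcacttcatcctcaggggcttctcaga
Olfr1380: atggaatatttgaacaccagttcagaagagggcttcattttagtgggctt
Olfr1381: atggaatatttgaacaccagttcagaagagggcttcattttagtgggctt
Olfr393: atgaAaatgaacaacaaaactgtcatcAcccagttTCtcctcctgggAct
Olfr382: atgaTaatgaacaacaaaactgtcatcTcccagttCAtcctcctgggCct
Olfr410: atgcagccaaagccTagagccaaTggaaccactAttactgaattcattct
Olfr401: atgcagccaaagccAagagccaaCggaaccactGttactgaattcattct

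Olfr312 and Olfr311, which differ at 1 base of this stretch and lie next to each other, had opposite fraction differences. Olfr312 was 7.06, 7.73, 7.35 and 7.83 in the odor libraries titled GFP+ (replicates 1 to 4), against 5.27, 5.06, 4.56 and 4.77 titled GFP-. Olfr311 was 6.68, 7.29, 6.64 and 7.93 titled GFP+, against 8.76, 8.16, 8.62 and 8.98 titled GFP-. Neither overlapped between its fractions, and the differences were 2.58 ± 0.26 (adjusted p = 4.24e-06) for Olfr312 and -1.50 ± 0.30 (adjusted p = 0.00268) for Olfr311, with 2.43 and -1.55 in vehicle. For Olfr311 the adjusted p with all 16 arrays was 0.0605.

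Olfr1380 and Olfr1381, identical over the stretch, were both on the lower side, at -1.20 ± 0.53 (adjusted p = 0.176) and -1.45 ± 0.30 (adjusted p = 0.00304) in odor. Olfr382 was 7.69, 7.75, 8.11 and 8.36 in the odor libraries titled GFP+ (replicates 1 to 4), against 7.04, 8.10, 8.42 and 7.35 titled GFP-. Its fractions overlapped, and its difference of 0.25 ± 0.46 (adjusted p = 0.807) stands beside the 7.96 of Olfr393. Olfr401 differed by 1.08 ± 0.23 (adjusted p = 0.00343) and Olfr410 by -0.56 ± 0.27 (adjusted p = 0.221). Among the 45 members with such a coding start, 20 of 990 pairs shared at least 45 of 50 bases, and the median gap between their odor differences was 0.84, against 1.70 over all 990 pairs. Many of the 20 pairs join the same genes, Olfr1371, Olfr1373, Olfr1380, Olfr1381 and Olfr1382, with gaps from 0.016 to 1.29. The other pairs ranged from 0.18 (Olfr10 and Olfr1393) to 7.72 (Olfr382 and Olfr393). The lower median therefore does not show that pairs with alike coding starts in general have similar differences. Array probes of genes alike in sequence can take up each other's RNA, so levels of such pairs are uncertain.

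No member passed the test for a shift between fractions with odor. The difference of fraction differences, odor minus vehicle, passed for 0 of the 78 members by limma (lowest adjusted p = 1.00; 3 at an unadjusted p under 0.05), with 0.0103% of all genes called; all 16 arrays also gave 0 (7 at an unadjusted p under 0.05; 0.00513% of all genes called). Olfr390 had fraction differences of 8.21, 8.15, 7.63 and 7.83 in odor pools 1 to 4, against 6.77, 7.02 and 7.12 in vehicle pools 1, 2 and 4. Olfr139 had 3.88, 4.55, 4.74 and 3.97 in odor, against 3.12, 3.62 and 3.77 in vehicle. Olfr401 had 0.87, 1.08, 1.34 and 1.03 in odor, against 0.62, -0.24 and 0.63 in vehicle. In each of these the odor pools all lay above the vehicle pools, by 0.98 ± 0.39, 0.78 ± 0.32 and 0.75 ± 0.34 on average, with unadjusted p of 0.0238, 0.0285 and 0.0466 that do not survive adjustment over all genes. These shifts rest in part on levels near or under the negative probe sets (median 5.46): in the libraries titled GFP- the means in odor and vehicle were 5.14 and 5.87 for Olfr390, 4.39 and 4.81 for Olfr139, and 4.91 and 5.16 for Olfr401. The rest of the 10 smallest p included Olfr1385 (1.18 ± 0.60), Olfr385 (-0.71 ± 0.39) and Olfr380 (-1.02 ± 0.56); the direction for Olfr380 turned with vehicle pool 3.

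The precision bounds what could be seen. The 95% interval of the difference of fraction differences reached 0.56 to 3.98 to either side, with a median of 0.99, and lay wholly within 1 of 0 for 12 members. For the others a shift of 1 on the log2 scale was not excluded by the interval. Olfr323 had the widest interval: it was 8.92 and 9.15 in odor replicates 1 and 2 titled GFP- and 5.08 and 5.02 in replicates 3 and 4, so its libraries differed more within the group than between fractions.

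**Figure D5:**
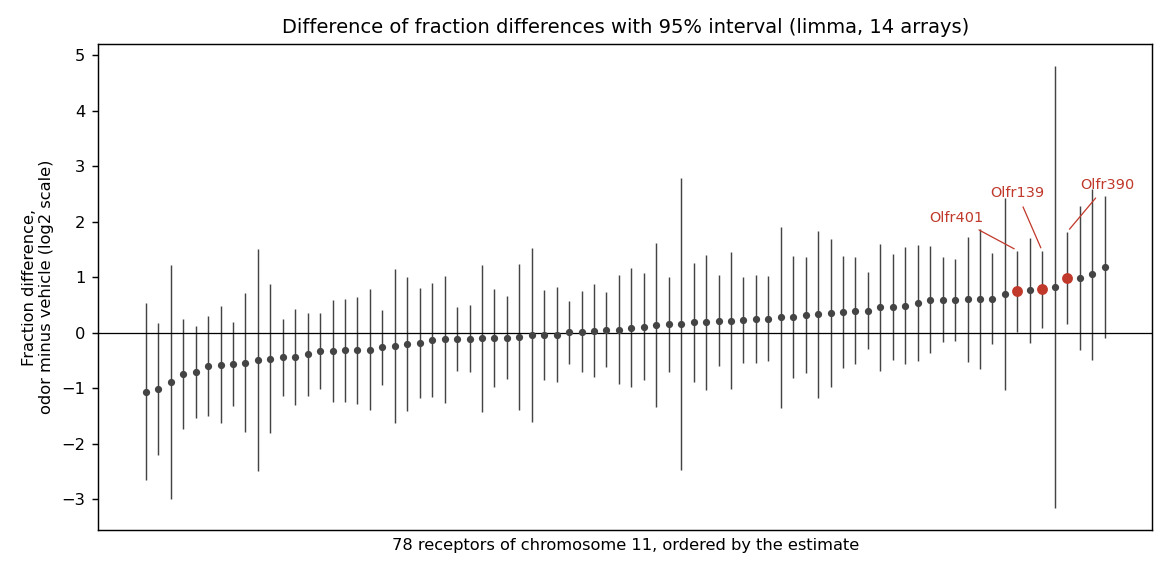
Fraction difference in odor minus that in vehicle on the log2 scale (y axis) for the 78 receptors ordered by the estimate (x axis), with 95% intervals from limma over 14 arrays. Olfr390, Olfr139 and Olfr401, in red, have intervals above 0 before adjustment, and 0 receptors passed after it.

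Within a fraction, odor against vehicle likewise called 0 members by limma. In the libraries titled GFP+ the lowest adjusted p was 0.636 and 1 member had an unadjusted p under 0.05, Olfr1383 at -0.64 ± 0.30 (0.0359% of all genes called). In the libraries titled GFP- the lowest adjusted p was 0.542 and 7 members had an unadjusted p under 0.05 (0.0256% of all genes called), among them Olfr390 (-0.72 ± 0.28), Olfr398 (0.77 ± 0.32), Olfr324 (1.28 ± 0.53), Olfr1380 (-1.32 ± 0.57) and Olfr1382 (-0.62 ± 0.27). With all 16 arrays both counts were also 0, with 1 and 2 members at an unadjusted p under 0.05.

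The receptor most like Olfr390 over the 14 arrays was Olfr826, on another chromosome, with a Pearson r of 0.997 among all receptors, followed by Olfr411 of chromosome 11 (0.994) and Olfr1046 (0.992). Olfr139 was most like Olfr826 (0.991), Olfr390 (0.990) and Olfr600 (0.989). All of these receptors were higher in the libraries titled GFP+: Olfr826 by 6.64 in odor and Olfr600 by 3.91. The 14 arrays hold both fractions, so a large fraction difference in the same direction by itself gives a high r. Of the 1002 receptors of other chromosomes 122 were higher by over 3 in odor. The r values therefore cannot tell whether there is a likeness beyond the shared fraction difference, as no r was computed within a fraction.

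Most genes that act with the receptors did not pass the test between fractions. Of 13 genes of olfactory transduction 0 were higher and 3 lower in odor, and 0 higher and 2 lower in vehicle (medians -0.23 and -0.27), and of 12 genes of receptor choice and trafficking 0 passed in either treatment by limma (1 in odor and 1 in vehicle at an unadjusted p under 0.05). Over all genes 4.59% were lower in odor and 3.32% in vehicle, with medians of -0.08 and -0.10. The share of transduction genes that were lower was thus above that of all genes, which was not tested further. Rtp1 and Rtp2, which bring receptors to the cell surface, differed by -0.05 and -0.27 in odor. The 3 called transduction genes were lower in the odor libraries titled GFP+ than in those titled GFP- by limma. Pde1c differed by -0.69 (adjusted p = 0.00323), Slc24a4 by -0.56 (adjusted p = 0.0123) and Ano2 by -0.51 (adjusted p = 0.00869). Ano2 is the chloride channel that amplifies the transduction current. Omp, which marks mature neurons, differed by -0.01 in odor. With all 16 arrays 3 transduction genes passed in odor and 0 in vehicle.

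Markers of other cells moved with the fractions. Of 10 mature neuron markers 2 were lower in odor, and their summed log2 level was 172.0 to 173.4 in odor titled GFP+, against 173.6 to 175.1 in odor titled GFP-. All 8 myeloid markers were higher in both treatments, with sums of 87.3 to 108.2 in odor titled GFP+, against 42.3 to 56.2 in odor titled GFP-. Of 6 immature neuron markers 4 were higher in both treatments, among them Gap43 (2.40 in odor) and Gng8 (4.64), with sums of 72.7 to 75.2 in odor titled GFP+, against 59.7 to 61.1 in odor titled GFP-. Higher in odor were also 4 of 4 measured globose basal markers, 5 of 7 sustentacular, 4 of 4 microvillar and 3 of 3 measured lymphoid markers, none being lower, while the 4 activity-raised genes were all lower in both treatments. With all 16 arrays, odor calls were 8 myeloid, 4 immature neuron, 4 microvillar and 3 globose basal markers. There were also 2 sustentacular, 2 lymphoid, 1 mature neuron and 1 activity-raised gene, and no call in vehicle. The part of these markers in the receptor differences was not tested.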

How the data were processed

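The authors deposited 1 table of log2 values for 28846 probe sets on 16 Affymetrix arrays, from Affymetrix Expression Console, according to the submitters' processing notes; no source used here names its version, the summarization or a genome build. Values ran from 1.69 to 19.4, above the limit of 16 for a 16-bit scanner, so differences are on the deposited log2 scale and are not folds. Arrays have no read depth; their number limits the precision. Symbols came from the platform annotation (19572 probe sets with 1 symbol, 0 with several), and 19505 genes remained with the probe set of highest mean per gene. All 78 members matched RefSeq (GRCm38.p6), which gave order, families and coding starts, and a strand for 68 of them. It had no part in the levels or the tests.

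Groups followed titles. The tests used limma (version 3.58.1, under R 4.3.3) with lmFit and eBayes, two-sided, with a mean per group and no block, with Benjamini-Hochberg adjustment over 19505 genes. Both libraries of vehicle pool 3 were left out of the main result because an earlier look at these data placed them with the opposite fraction; the fit of all 16 arrays is given beside it. With 14 arrays 4 odor and 3 vehicle libraries stood in each fraction. Same-numbered fractions of a treatment came from the same mice; their deviations from the group means correlated at 0.127 to 0.253 in odor and -0.02, 0.287 and 0.04 in vehicle, and the pool was tried as a block. Members, lists and tests were chosen with earlier results of these data known. Named were S100a5, the 8 largest called differences per direction and treatment, the 10 smallest p for odor minus vehicle of fraction differences and the 5 smallest within each fraction, the 3 flattest members, and members whose fraction difference turned with pool 3. Pairs were to be chosen by protein identity, but no protein sequences were used; coding starts took their place, chosen after the values were seen. The procedure was tested on simulated data. Alternatives were the block, centring, quantile normalization, leaving out dim genes, probe set means, a trend with robust moderation, array weights, fitting only the groups compared, and leaving out each library.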

Additional observations from a re-analysis of the deposited data

Results flagged for a closer look

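In 5 of the 78 odor groups of 4 libraries checked (the named members), 1 library stood apart from the other 3; chance alone marks about 1 in 20 such groups, and vehicle groups of 3 were not checked. Olfr1382 was 10.20 in odor replicate 4 titled GFP+, against 9.07 to 9.24 in the other 3. Olfr385 was 4.43 in odor replicate 2 titled GFP+, against 5.04 to 5.15. Olfr1383 was 7.88 in odor replicate 4 titled GFP-, against 8.86 to 8.96. Olfr314 was 10.43 in odor replicate 3 titled GFP-, against 9.19 to 9.30. Olfr1389 was 12.25 in odor replicate 1 titled GFP-, against 12.72 to 12.81. The 5 values come from 5 different libraries.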

How the results depend on the processing

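The labels of the fractions and vehicle pool 3 limit these results most. With all 16 arrays 29 members passed in odor and 0 in vehicle, and with the replicate block added 0 and 0. Leaving out 1 library at a time from the 14 arrays gave 46 to 48 calls in odor, 35 to 42 in vehicle and 0 to 0 for the 3 odor comparisons; 44 of the 47 odor calls and 33 of the 42 vehicle calls held in every such fit (lost in 1 or more were Olfr54, Olfr223 and Olfr403 in odor, and Olfr1391, Olfr54, Olfr329, Olfr316, Olfr389, Olfr391, Olfr394, Olfr395 and Olfr403 in vehicle). The replicate block on 14 arrays, with the pool of mice as block, gave 49 calls in odor and 40 in vehicle, with 47 of 47 and 39 of 42 kept (Olfr1391, Olfr54 and Olfr394 lost). Centring lost Olfr223 in odor and Olfr394 and Olfr395 in vehicle. Without dim genes, whose mean was not above the median of the negative probe sets, 71 members were tested. Of these, 45 passed in odor and 41 in vehicle, with Olfr223 and Olfr401 lost in odor and Olfr395 in vehicle. Uncalled directions turned more widely: centring turned 8 members in odor and 11 in vehicle, and all 16 arrays turned 5 in vehicle, 21 in the difference of fraction differences, 16 in odor against vehicle titled GFP+ and 27 titled GFP-. Among the named results these were as follows. With all 16 arrays, with or without the replicate block, the difference of fraction differences was -0.12 for Olfr1373 and 0.67 for Olfr380, and the vehicle fraction difference was -0.12 for Olfr1383, -0.037 for Olfr1393, -0.027 for Olfr398, -0.11 for Olfr401 and 0.13 for Olfr51. After centring the last quantity was -0.34 for Olfr1383, -0.20 for Olfr1393, -0.35 for Olfr398 and -0.018 for Olfr401, and for Olfr1383 it was -0.077 after quantile normalization and -0.043 with array weights. Without 1 library it ran from -0.41 to 0.25 for Olfr1383, from -0.055 to 0.53 for Olfr1393 and from -0.18 to 0.21 for Olfr398. The causes were not tested.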

Other observations

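Of the 68 members with a strand in the RefSeq sequence table, those on the minus strand were more often higher in the libraries titled GFP+ in odor (16 of 31, with 5 lower) than those on the plus strand (10 of 37, with 9 lower); in vehicle the counts were 16 higher and 5 lower on the minus strand, and 7 higher and 8 lower on the plus strand. With all 16 arrays, odor counts were 10 higher and 4 lower on the minus strand and 8 higher and 4 lower on the plus strand. Vehicle counts were then 0 on both strands. The strands are shared by neighbours, and no test was made.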
